A study of Mus musculus with 6 samples.

Results

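The genes described here encode the neuronal cytoskeleton and the synapse. They are 38 of the 24453 gene symbols counted, chosen by name: neurofilaments, neuronal tubulin and its partners, growth cone and axonal adhesion proteins, synaptic organizers, vesicle and fusion proteins, and neuronal RNA-binding proteins. They were measured by RNA sequencing in epidermis of newborn mouse back skin (postnatal day 0), a tissue of keratinocytes and not of neurons. Interfollicular cells were sorted by EpCAM, Sca1 and a high level of α6-integrin. One group of 3 libraries was labelled with the genotype Control and the other 3 with Ring1a-/- Ring1b-/-, the loss of both ubiquitin ligases of Polycomb repressive complex 1 (PRC1). Strain, sex, the way the alleles were deleted and whether each library came from its own animal are not given in the sources used here. The p-values therefore measure the spread between these libraries, which may be technical in part.

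PRC1 places ubiquitin on histone H2A, and at many developmental genes with CpG-rich promoters it acts with PRC2 to keep them silent outside their own lineage. Neurofilaments are intermediate filaments that set the calibre of axons. At the synapse, SNARE proteins fuse transmitter vesicles with the membrane, and synaptotagmins sense the calcium that triggers the fusion. Many of these genes are also repressed outside neurons by the zinc finger protein REST, which binds a DNA element called RE1.

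C1 to C3 stand for replicates 1 to 3 of the control-labelled libraries and K1 to K3 for those of the knockout-labelled ones, and values are given in that order. The libraries held 18951665 to 31187270 counts, and levels are in CPM, which divides each count by the scaled size of its library. Of 11 keratinocyte markers, all were counted in every library, led by Krt5 at 23088 CPM (mean of the control-labelled libraries) and 17918 CPM (knockout-labelled). edgeR called 2 of the 11 lower and 0 higher, beside 2.98 and 7.17% of all genes tested. DESeq2 called 3 lower and 1 higher (6.02 and 11.0% of all genes it tested), and limma-voom 2 lower and 0 higher. Trp63 and Col17a1 fell (1760 ± 30.4 to 1016 ± 108 and 3260 ± 274 to 1955 ± 171 CPM, mean ± SD, n = 3; edgeR adjusted p = 0.0176 and 0.0278). The targeted gene Ring1 did not follow the labels in replicate 3, with 30.9, 17.1 and 3.90 CPM in C1 to C3 and 1.66, 5.20 and 14.2 CPM in K1 to K3. No source used here gives the deleted part of Rnf2 (Ring1b), and its counts (51.3 and 59.5 CPM) therefore check no label. Xist, a transcript of the inactive X chromosome, was high in C3, K1 and K2 (1757, 6133 and 4736 CPM) and at 4.48 to 10.5 CPM in the others. Ddx3y, a gene of the Y chromosome, had 91.2, 102 and 59.7 CPM in C1 to C3 and 0.0346, 0.206 and 76.2 CPM in K1 to K3. C3 was thus high in both, and these 2 markers of sex were not balanced between the groups. Dcx, L1cam, Syp and Syn1 lie on the X chromosome.

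Many of these neuronal genes were higher in the knockout-labelled epidermis and none was called lower. In bulk RNA, more cells of a type and more RNA per cell cannot be told apart. Of the 38, 28 had enough counts to be tested, and 17 of those rose at an adjusted p under 0.05 (edgeR's quasi-likelihood test over all genes). The same call was made for 7.17% of all 14890 genes tested. The share is not that of a random list, since the genes were named with results of these data known. Of the 28, 14 had at least 1 control-labelled library under the filter's level of 0.358 CPM, so some entered only through their level in the knockout-labelled libraries and had to differ. These 14 held 10 of the 17 that rose. The other 14, with every control-labelled library at that level, held 7. edgeR called 0 of the 38 lower, 0 were lower at an unadjusted p under 0.05, and DESeq2 and limma-voom also called 0 lower. Over all genes, 2.98% were called lower by edgeR, 6.02% by DESeq2 and 3.22% by limma-voom. DESeq2 called 18 of the 38 higher (11.0% of all genes it tested) and limma-voom 16 (7.35%).

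The median log2 fold change of the 28 tested genes was 2.38, against 0.00040 over all genes tested. It includes the genes that entered through their level in the knockout-labelled libraries. Lower bounds for the 3 genes at 0 in every control-labelled library left it at 2.38, but could not move it, since they lie above it. Of the 17 that rose, 14 changed at least 4-fold (4.64% of all tested genes were called higher at that size), and 10 averaged under 1 CPM in the control-labelled group. The 2 groups of libraries did not overlap for any of these 17. They did not overlap for 19 of the 28 tested genes with the knockout-labelled libraries higher and for 1 with them lower, against 17.6 and 14.8% of all tested genes. The 19 include genes that entered only through their level in the knockout-labelled libraries. With replicates 1 and 2 alone, where Ring1 followed the labels (an alternative added after seeing the data), 8 of the 17 were called: Nefh, Ina, Map1b, Nfasc, C1ql1, Nrxn2, Syt7 and Syt13. The same 8 kept their call under each of the 17 alternatives tried. In replicates 1 and 2, Xist and Ddx3y also split by label, so sex and genotype cannot be told apart there.

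**Figure D1:**
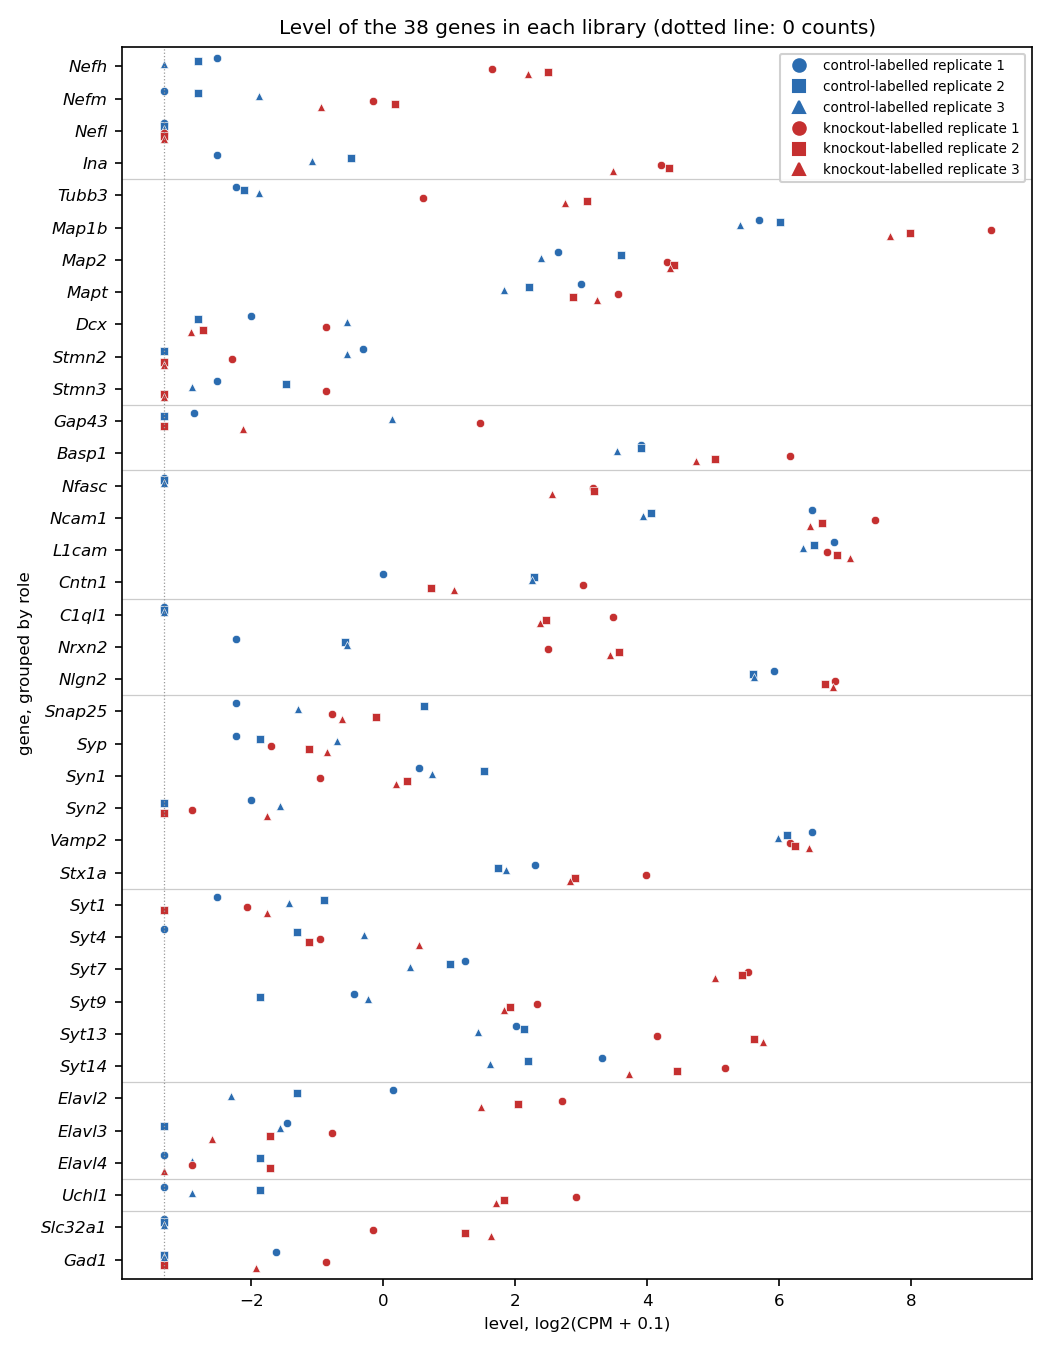
Each row is a gene, and the horizontal axis is its level as log2(CPM + 0.1), with control-labelled libraries in blue and knockout-labelled ones in red. Genes such as Ina, Tubb3, Nfasc and Syt7 separate by group, while Syt1 and Elavl4 lie near the dotted line of 0 counts in both groups and Snap25 and Vamp2 overlap.

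The genes that rose were set beside the others at their promoters, for CpG content and for the letters of RE1. RefSeq promoter windows on GRCm38.p6, 250 bases before to 50 after the start, were matched by symbol for 24 of the 38. Nefh, Nefm, Nefl, Mapt, Stmn2, Gap43, Ncam1, C1ql1, Nrxn2, Snap25, Vamp2, Syt4, Syt7 and Syt13 had no entry. The stretches below begin 250 bases before the start and end at the start or before the first base of an annotated exon. They run 5′ to 3′ on the gene's strand, with each CpG dinucleotide in capitals. That of Ina lies within Nt5c2, a gene on the opposite strand, but in none of its exons. Ina (chr19:47014431-47014680, plus strand), Basp1 (chr15:25413765-25414014, minus strand) and Syt9 (chr7:107370540-107370727, plus strand) rose, and are shown as CpG-rich promoters.
Ina: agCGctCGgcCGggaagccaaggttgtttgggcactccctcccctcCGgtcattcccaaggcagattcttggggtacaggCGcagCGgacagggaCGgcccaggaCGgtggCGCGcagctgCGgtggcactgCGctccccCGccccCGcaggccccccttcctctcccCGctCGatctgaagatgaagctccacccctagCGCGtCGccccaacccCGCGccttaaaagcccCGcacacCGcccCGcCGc
Basp1: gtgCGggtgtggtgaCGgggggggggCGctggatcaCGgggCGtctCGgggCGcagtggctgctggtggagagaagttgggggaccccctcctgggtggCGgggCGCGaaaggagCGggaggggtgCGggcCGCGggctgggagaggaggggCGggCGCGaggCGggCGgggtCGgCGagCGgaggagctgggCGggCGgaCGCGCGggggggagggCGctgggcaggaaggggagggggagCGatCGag
Syt9: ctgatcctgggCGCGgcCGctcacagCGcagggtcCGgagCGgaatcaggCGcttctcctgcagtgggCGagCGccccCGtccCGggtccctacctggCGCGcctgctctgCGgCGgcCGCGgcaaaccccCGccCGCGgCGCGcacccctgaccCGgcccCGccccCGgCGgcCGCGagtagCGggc

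Syn1 (chrX:20921005-20921168, minus strand), Elavl3 (chr9:22052024-22052273, minus strand) and Stmn3 (chr2:181314501-181314750, minus strand) were not called. Of these, Syn1 was tested and did not pass, and Elavl3 and Stmn3 had too few counts to test. Syn1 and Elavl3 are shown because they are as rich in CpG as genes that rose, and Stmn3 because it is poor in CpG.
Syn1: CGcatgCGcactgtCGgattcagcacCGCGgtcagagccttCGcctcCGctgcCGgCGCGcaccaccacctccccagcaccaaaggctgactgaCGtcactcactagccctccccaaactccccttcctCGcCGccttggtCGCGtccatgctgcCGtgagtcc
Elavl3: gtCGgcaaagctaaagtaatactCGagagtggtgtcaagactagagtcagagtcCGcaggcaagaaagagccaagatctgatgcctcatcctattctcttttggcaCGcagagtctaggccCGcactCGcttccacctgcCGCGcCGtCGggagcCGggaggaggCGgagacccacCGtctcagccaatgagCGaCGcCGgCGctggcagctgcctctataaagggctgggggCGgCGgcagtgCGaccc
Stmn3: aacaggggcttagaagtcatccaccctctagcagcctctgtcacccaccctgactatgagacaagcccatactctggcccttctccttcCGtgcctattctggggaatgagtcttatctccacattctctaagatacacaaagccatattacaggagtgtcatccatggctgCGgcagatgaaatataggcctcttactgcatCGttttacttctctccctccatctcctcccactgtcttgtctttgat

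Counted over windows of 300 bases at the most 5′ start of each gene, the 12 matched genes that rose held 7 to 49 CpGs with a median of 26. The other 12, of which 5 were tested without passing and 7 were not tested, held 3 to 33 with a median of 20. The median over all 32851 windows was 7. At least 15 CpGs were found in 9 of the 12 that rose, in 8 of the other 12 and in 34.6% of all windows. High CpG content was thus shared by genes that rose (Syt9 49, Basp1 38, Map2 37, Ina 32), by a gene tested without passing (Syn1 33) and by genes with too few counts to test (Elavl3 29, Elavl4 23), and Nfasc and Uchl1 rose with 7 and 9. Start sites also differed within a gene: the 6 windows of Elavl2 held 10 to 27 CpGs. The left element of RE1, searched on both strands as TTCAGCACC, was found in 1 of the 24 genes, Syn1, beginning 232 bases before the start and within the stretch printed above, and in 0.371% of all windows. The shorter right element, searched on both strands as GGACAG, was found in 6 of the 12 genes that rose, in 2 of the other 12 and in 22.2% of all windows. The left element was found in 0 of the 12 that rose, so their matches are the short right element alone. The windows of all genes were not matched for CpG content and not limited to tested genes. They hold every start of a gene (32851 windows of 27025 genes), where the 24 genes have their most 5′ one alone. These are letters in a window of fixed length, with no measure of binding.

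**Figure D2:**
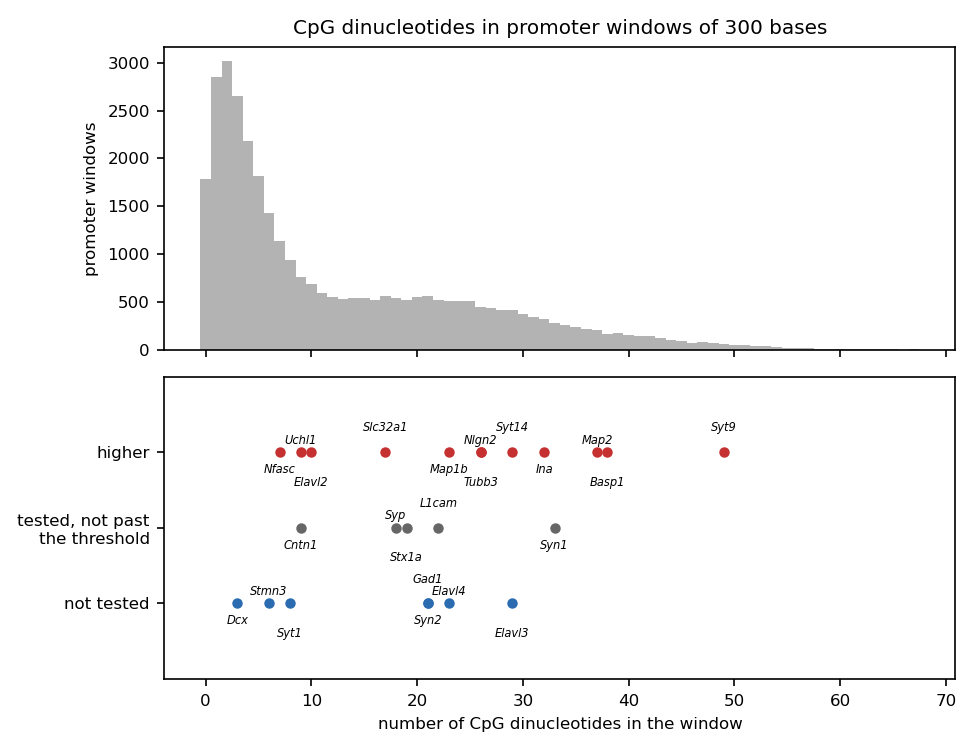
The upper panel counts all 32851 RefSeq promoter windows of 300 bases by their number of CpG dinucleotides, and the lower panel places the most 5′ window of each of the 24 matched genes on the same axis. The 12 genes that rose span 7 to 49 CpGs and the other 12 span 3 to 33, with much overlap.

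Of 4 neurofilament genes, each at or near 0 in the control-labelled libraries, 3 were tested and 2 rose. Nefh (chromosome 11, 4938754 to 4948064, the heavy subunit) had 2, 1 and 0 counts in C1 to C3 and 88, 108 and 138 in K1 to K3, or 3.05, 5.56 and 4.48 CPM. All 3 knockout-labelled libraries were above every control-labelled one, and the ratio of counts was 111 (95% interval for counting 37.6 to 540.4). The change passed at an edgeR adjusted p of 0.00282. Ina (chromosome 19, 47014698 to 47025327), which encodes α-internexin, the filament protein of early neurons, had 0.0750, 0.612 and 0.376 CPM in C1 to C3 and 18.5, 20.0 and 11.0 CPM in K1 to K3. The groups lay far apart, and the log2 fold change, with the model's SE from 3 libraries a group, was 5.54 ± 0.64 (edgeR adjusted p = 0.00159). Exons of Ina share 456 bases with Nt5c2 on the opposite strand, a gene with a log2 fold change of -0.13. No source used here says whether counting used the strand.

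Nefm, the medium subunit, reached only 0.796, 1.03 and 0.422 CPM in K1 to K3 from 0, 0.0437 and 0.171 CPM in C1 to C3. Its groups did not overlap, but the log2 fold change of 3.26 ± 1.14 did not pass (edgeR adjusted p = 0.114). Nefl, the light subunit and in neurons the core of the filament, had 0 counts in all 6 libraries, which allows up to 3 counts or 0.0975 to 0.154 CPM in each. Nefl and Nefm (chromosome 14, 68083863 to 68089095 and chromosome 14, 68082590 to 68124846) share 1108 exonic bases on opposite strands in GENCODE M21. Reads in that stretch fit either gene unless counting used the strand.

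Of 7 genes of neuronal tubulin and its regulators, 4 were tested and 3 rose. Tubb3 (chromosome 8, 123411424 to 123422015), the β-tubulin used to recognise neurons, had 0.113, 0.131 and 0.171 CPM in C1 to C3 and 1.42, 8.44 and 6.66 CPM in K1 to K3. Every knockout-labelled library was higher, but K1 was far below K2 and K3. Its log2 fold change was 5.26 ± 0.82 (edgeR adjusted p = 0.00580), and limma-voom did not call it (adjusted p = 0.0837).

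Map1b (chromosome 13, 99421446 to 99516540), which stabilises microtubules in growing axons, was already expressed in control-labelled epidermis at 51.5, 64.1 and 42.4 CPM in C1 to C3. It reached 589, 252 and 204 CPM in K1 to K3. K1 was the highest library, and the increase was 6.61-fold (log2 fold change 2.73 ± 0.40, edgeR adjusted p = 0.00461). Map2, the dendritic microtubule protein, rose from 6.15, 12.1 and 5.17 CPM in C1 to C3 to 19.5, 21.0 and 20.3 CPM in K1 to K3. The knockout-labelled values were close together and the control-labelled ones were not, and the 2.60-fold increase passed narrowly (edgeR adjusted p = 0.0398). It was lost when any 1 of C1, C3, K1, K2 or K3 was left out (edgeR adjusted p up to 0.128).

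Mapt, the axonal protein tau, had 7.88, 4.55 and 3.45 CPM in C1 to C3 and 11.7, 7.26 and 9.39 CPM in K1 to K3, with overlap between the groups (edgeR adjusted p = 0.244). Dcx, the microtubule protein of migrating neurons, had 4, 1 and 17 counts in C1 to C3 and 13, 1 and 1 in K1 to K3. The stathmins, which bind free tubulin, were as low: Stmn3 had 2, 6 and 1 counts in C1 to C3 and 13, 0 and 0 in K1 to K3, and Stmn2 had 19, 0 and 17 counts in C1 to C3 and 3, 0 and 0 in K1 to K3. None of these 3 genes reached the count filter, and their groups overlapped.

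Of the pair of growth cone membrane proteins that bind phosphoinositides and actin, Basp1 rose and Gap43 could not be tested. Basp1 had 14.9, 14.8 and 11.6 CPM in C1 to C3 and 71.9, 32.4 and 26.5 CPM in K1 to K3. K1 again stood highest, and the increase was 3.17-fold (edgeR adjusted p = 0.0259). The call was lost without C1, C2 or C3 (edgeR adjusted p up to 0.0989). Gap43 counts lay mostly in C3 and K1, at 1, 0 and 29 counts in C1 to C3 and 77, 0 and 4 in K1 to K3.

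Of 4 axonal adhesion genes, all tested, Nfasc rose. Neurofascin, its protein, anchors sodium channel clusters at the axon initial segment and at nodes. The gene (chromosome 1, 132564690 to 132741797) had 0 counts in C1 to C3 and 8.93, 9.01 and 5.82 CPM in K1 to K3. It was at least 203-fold higher when 3 counts over the control-labelled group are taken as the floor (edgeR adjusted p = 0.00115). L1cam, expressed strongly in control-labelled epidermis, had 114, 91.6 and 81.6 CPM in C1 to C3 and 106, 117 and 135 CPM in K1 to K3. The groups overlapped and the log2 fold change was 0.32 ± 0.19 (edgeR adjusted p = 0.362).

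Ncam1, the neural cell adhesion molecule, was at 89.9, 16.5 and 15.2 CPM in C1 to C3 and 175, 100.3 and 88.0 CPM in K1 to K3. C1 overlapped the knockout-labelled range, and the log2 fold change of 1.58 ± 0.66 did not pass (edgeR adjusted p = 0.182). It passed without C1 (edgeR adjusted p = 0.00539). Cntn1, the axonal contactin, had 0.900, 4.76 and 4.69 CPM in C1 to C3 and 8.03, 1.54 and 2.01 CPM in K1 to K3, and both groups spread over more than 5-fold (edgeR adjusted p = 0.927).

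All 3 genes of synaptic adhesion and organization rose. C1ql1 (chromosome 11, 102939264 to 102946688) is a secreted C1q-like protein that climbing fibres use to organize cerebellar synapses. It had 0 counts in C1 to C3 and 11.1, 5.41 and 5.10 CPM in K1 to K3, at least 193-fold higher against the floor (edgeR adjusted p = 0.00189). Nrxn2, a presynaptic neurexin, had 0.113, 0.568 and 0.582 CPM in C1 to C3 and 5.57, 11.8 and 10.7 CPM in K1 to K3. That is a 22.0-fold increase, with every knockout-labelled library above every control-labelled one (edgeR adjusted p = 0.00464).

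Nrxn2 shares 682 exonic bases on the opposite strand with Slc22a12, which had 0 counts in C1 to C3 and 3, 13 and 28 in K1 to K3. Nlgn2, a neuroligin that binds neurexins across inhibitory synapses, started high and rose less. Its level was 60.3, 48.5 and 49.1 CPM in C1 to C3 and 115, 103 and 113 CPM in K1 to K3. The values within each group lay close together, and the log2 fold change was 1.07 ± 0.17 (edgeR adjusted p = 0.00679). Once GC content and exon length entered the fit as an offset, this call was lost (log2 fold change 0.45, edgeR adjusted p = 0.112).

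The genes for vesicle membrane and fusion proteins did not pass. edgeR called 0 of the 5 tested, 1 was higher at an unadjusted p under 0.05, and DESeq2 called 1 higher and limma-voom 0. Vamp2, the vesicle SNARE, which many secreting cells also express, had 90.2, 69.0 and 63.1 CPM in C1 to C3 and 71.7, 75.2 and 87.0 CPM in K1 to K3. The groups covered the same range, with a log2 fold change of 0.07 ± 0.20 (edgeR adjusted p = 0.865).

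Its membrane partner Snap25 was at 0.113, 1.44 and 0.308 CPM in C1 to C3 and 0.485, 0.824 and 0.552 CPM in K1 to K3. The log2 fold change was 0.0039 with an SE of 0.97, an error too wide to exclude changes in either direction. Stx1a, the third SNARE, went from 4.80, 3.23 and 3.52 CPM in C1 to C3 to 15.7, 7.36 and 7.02 CPM in K1 to K3 without overlap (edgeR adjusted p = 0.0768). It was the gene that DESeq2 called (adjusted p = 0.0171).

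Synaptophysin (Syp), the vesicle protein that pathologists stain, had 3, 4 and 15 counts in C1 to C3 and 6, 7 and 14 in K1 to K3. It was tested, and its groups overlapped (edgeR adjusted p = 0.872). Syn1 encodes synapsin, which tethers vesicles to actin. It was the gene whose groups did not overlap with the control-labelled libraries higher, at 1.35, 2.80 and 1.57 CPM in C1 to C3 and 0.415, 1.18 and 1.04 CPM in K1 to K3. Its log2 fold change of -1.12 ± 0.68 did not pass (edgeR adjusted p = 0.364). Syn2 had 0 to 7 counts per library and was not tested.

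Of 6 synaptotagmins, 5 were tested and 4 rose. Syt7, a calcium sensor of high affinity that also serves lysosome and granule exocytosis, had 2.25, 1.92 and 1.23 CPM in C1 to C3 and 46.2, 43.4 and 32.5 CPM in K1 to K3. The gap between groups far exceeded the spread within them, with a log2 fold change of 4.50 ± 0.32 (edgeR adjusted p = 0.000353), the smallest adjusted p of the 28. Syt13, which lacks calcium binding, rose 11.1-fold from 3.94, 4.28 and 2.60 CPM in C1 to C3 to 17.7, 49.0 and 53.6 CPM in K1 to K3 (edgeR adjusted p = 0.00253). K1 was the lowest of the knockout-labelled libraries for this gene.

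Syt14 had 9.87, 4.46 and 2.98 CPM in C1 to C3 and 36.1, 21.8 and 13.1 CPM in K1 to K3. Syt9 had 0.638, 0.175 and 0.753 and 4.95, 3.71 and 3.44 CPM in the same order. Both groups separated for each of these genes, but the calls were near the threshold (edgeR adjusted p = 0.0403 for Syt14 and 0.0241 for Syt9). Syt9 lost its call without any 1 library (edgeR adjusted p 0.0503 to 0.0733) and Syt14 without C2, C3, K1 or K2 (up to 0.116).

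The other 2 were low in both groups. Syt1, the fast calcium sensor of synaptic vesicles, had 2, 10 and 8 counts in C1 to C3 and 4, 0 and 6 in K1 to K3, too few to test. Syt4 had 0, 7 and 21 and 12, 7 and 42 counts, with overlapping groups (edgeR adjusted p = 0.655).

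Of the neuronal members of the Hu family, which bind and stabilise AU-rich messages, Elavl2 rose. It had 1.01, 0.306 and 0.103 CPM in C1 to C3 and 6.44, 4.02 and 2.70 CPM in K1 to K3, a 9.18-fold increase (edgeR adjusted p = 0.0448). The call was lost without C2, C3, K1, K2 or K3 (edgeR adjusted p up to 0.120). Elavl3 and Elavl4 had 0 to 14 counts per library and were not tested. Uchl1 (chromosome 5, 66676091 to 66687234), the abundant neuronal ubiquitin hydrolase also known as PGP9.5, had 0, 4 and 1 counts in C1 to C3 and 215, 67 and 98 in K1 to K3. Its level of 7.44, 3.45 and 3.18 CPM in K1 to K3 was above every control-labelled library, and the log2 fold change was 6.06 ± 0.99 (edgeR adjusted p = 0.00692). The antisense gene Uchl1os, which shares 295 exonic bases with it, had 0 counts in all 6 libraries.

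Of the pair of genes for GABA, the inhibitory transmitter, 1 was tested and rose. Slc32a1 (chromosome 2, 158610767 to 158615748), the transporter that loads GABA and glycine into vesicles, had 0 counts in C1 to C3 and 23, 44 and 92 counts in K1 to K3. It was at least 52.8-fold higher against the floor (edgeR adjusted p = 0.0118), though its level was only 0.796, 2.27 and 2.99 CPM. Gad1, the enzyme that makes GABA, had 6, 0 and 0 counts in C1 to C3 and 13, 0 and 5 in K1 to K3. The paralog Gad2 had 0, 7 and 0 and 10, 0 and 2. Neither reached the count filter.

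**Figure D3:**
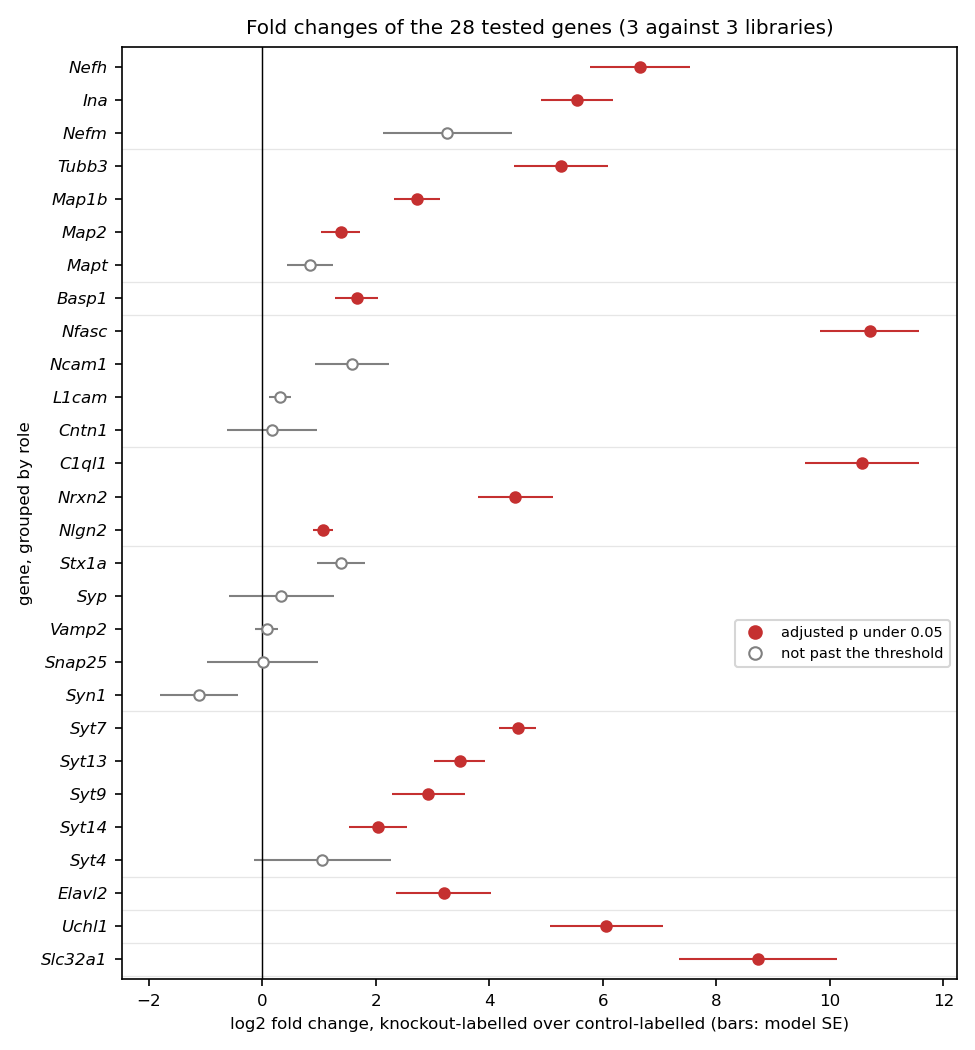
Points are log2 fold changes of the 28 tested genes, knockout-labelled over control-labelled, with bars for the model's SE and filled red points for an adjusted p under 0.05. Neurofilament, synaptic adhesion and most synaptotagmin genes lie to the right, while the vesicle and SNARE genes lie between -1.12 (Syn1) and 1.38 (Stx1a). The fitted values of Nfasc, C1ql1 and Slc32a1, which had 0 control-labelled counts, depend on the prior count and are no bounds.

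Set per kilobase of merged exon, which allows genes to be compared, the highest levels in the knockout-labelled libraries were those of Map1b (22.0 CPM per kb), Basp1 (21.7), Vamp2 (20.5), Nlgn2 (19.1) and L1cam (16.2). Map1b ranged 2.88-fold and Basp1 2.71-fold among these libraries, more than the gaps between these 5 levels. In the control-labelled libraries the order was Vamp2 (19.4 CPM per kb), L1cam (13.0), Nlgn2 (9.09), Basp1 (6.85), Ncam1 (4.68) and Map1b (3.32). Genes that rose from near silence stayed modest, such as Syt7 at 5.44, Ina at 5.09, C1ql1 at 4.88, Tubb3 at 2.95 and Nfasc at 0.560 CPM per kb. Merged exons include those of all annotated isoforms, so a gene expressed as a short isoform is set too low. For reference, the median mean level of all tested genes was 18.2 CPM in the knockout-labelled libraries, not set per kilobase. The mean of Syt7 (40.7 CPM) was above it. Those of Ina (16.5), Nfasc (7.92), C1ql1 (7.19), Tubb3 (5.51) and Nefh (4.36 CPM) were below it.

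The 17 genes that rose did not rank the knockout-labelled libraries alike. K1 was the highest for 9 of them and the lowest for 6. It was highest for Map1b, Basp1, Uchl1, C1ql1, Syt14, Elavl2, Syt9, Syt7 and Nlgn2, and lowest for Tubb3, Slc32a1, Syt13, Nrxn2, Nefh and Map2. K3 was lowest for 10 and K2 for 1. The range among knockout-labelled libraries was widest for Tubb3 (5.95-fold), Slc32a1 (3.75-fold) and Syt13 (3.03-fold) and narrowest for Map2 (1.08-fold) and Nlgn2 (1.11-fold). K1 also had the least Ring1 and the most Xist, and the part of either in these differences was not tested.

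**Figure D4:**
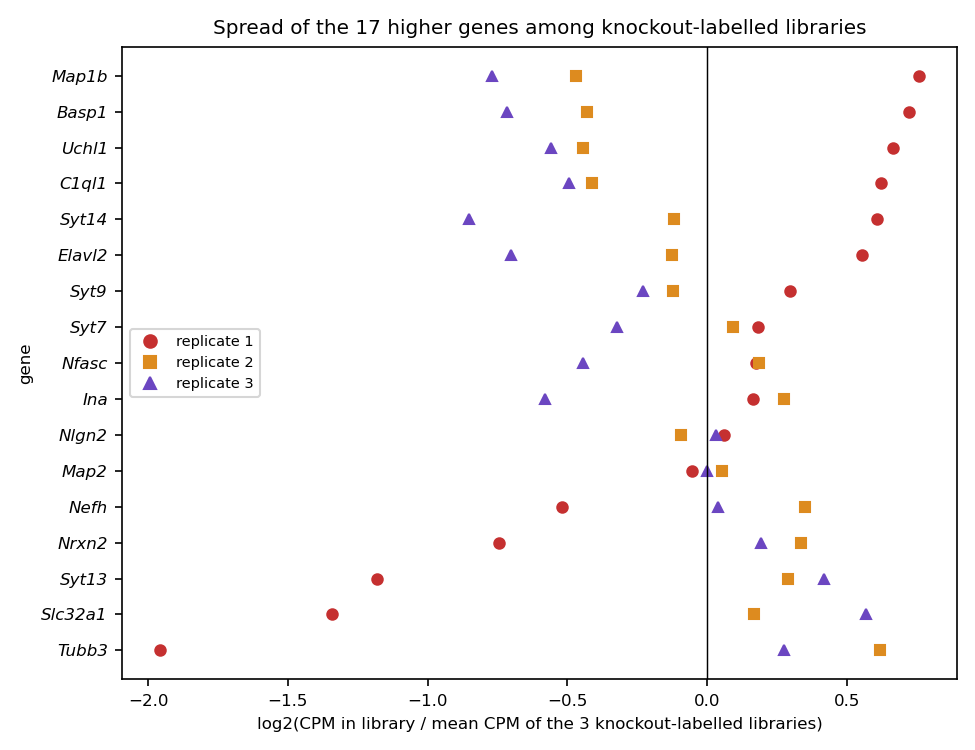
For each of the 17 genes that rose, symbols give the log2 ratio of its CPM in a knockout-labelled library to the mean of the 3, ordered by replicate 1. Replicate 1 lies highest for Map1b and Basp1 at the top and lowest for Slc32a1 and Tubb3 at the bottom.

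Other genes of the neuronal cytoskeleton and synapse were taken from lists made by function. These lists too were made with earlier results of these data known, so their shares called are not independent of those results. Of 25 further axonal and cytoskeletal genes, 21 were tested, 7 rose and 0 fell (edgeR), beside 7.17% called higher over all genes. Among those that rose, Dclk2 had 0, 1 and 6 counts in C1 to C3, each under the filter's level of 0.358 CPM. It entered only through its level in the knockout-labelled libraries and had to differ. At an unadjusted p under 0.05, 1 was lower, and DESeq2 and limma-voom called 0 lower. Dpysl5, Dpysl3, Tubb2b and Kif1a had the smallest p. Dpysl5, a collapsin response mediator of growth cones, had 19.7, 17.4 and 13.3 CPM in C1 to C3 and 257, 165 and 171 CPM in K1 to K3 (edgeR adjusted p = 0.000356). Its relative Dpysl3 rose from 5.39 ± 0.872 to 60.2 ± 33.6 CPM (mean ± SD, n = 3; edgeR adjusted p = 0.00157). The β-tubulin Tubb2b rose with a log2 fold change of 3.59 ± 0.45, and Kif1a, the kinesin that carries synaptic vesicle precursors, with 4.92 ± 0.69 (edgeR adjusted p = 0.00217 and 0.00382).

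Of 54 further synaptic genes, 30 were tested and 3 rose, a share close to the 7.17% called higher over all genes, with 0 lower (edgeR, and 0 lower at an unadjusted p under 0.05, by DESeq2 and by limma-voom). Sv2b, a vesicle glycoprotein, had 1.20, 0.743 and 0.855 CPM in C1 to C3 and 8.10, 11.3 and 24.1 CPM in K1 to K3. Syngr1, another vesicle protein, rose 6.51-fold, and Rims2, a scaffold of the active zone, rose from 0.563, 0.219 and 0 to 14.9, 15.4 and 12.6 CPM in the same order (edgeR adjusted p = 0.00258 for Sv2b, 0.00484 for Syngr1 and 0.00469 for Rims2). The median log2 fold change of the tested genes was 1.68 for the axonal list and 0.53 for the synaptic list. DESeq2 called 11 and 6 genes of these lists higher, against 7 and 3 by edgeR, and 11.0% of all genes it tested.

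Of 16 genes of neuronal RNA processing and REST repression, 15 were tested and edgeR called 0. At an unadjusted p under 0.05, 3 were higher and 1 lower, DESeq2 called 2 higher, and limma-voom called 0. Ptbp1, the splicing repressor of cells that are not neurons, had the highest mean, at 505 ± 98.5 and 458 ± 60.0 CPM (control-labelled and knockout-labelled, mean ± SD, n = 3). Rest itself, named after its values were seen, had 132, 115 and 137 CPM in C1 to C3 and 139, 102 and 113 CPM in K1 to K3, with overlapping groups and a log2 fold change of -0.11 ± 0.18 (edgeR adjusted p = 0.772).

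**Figure D5:**
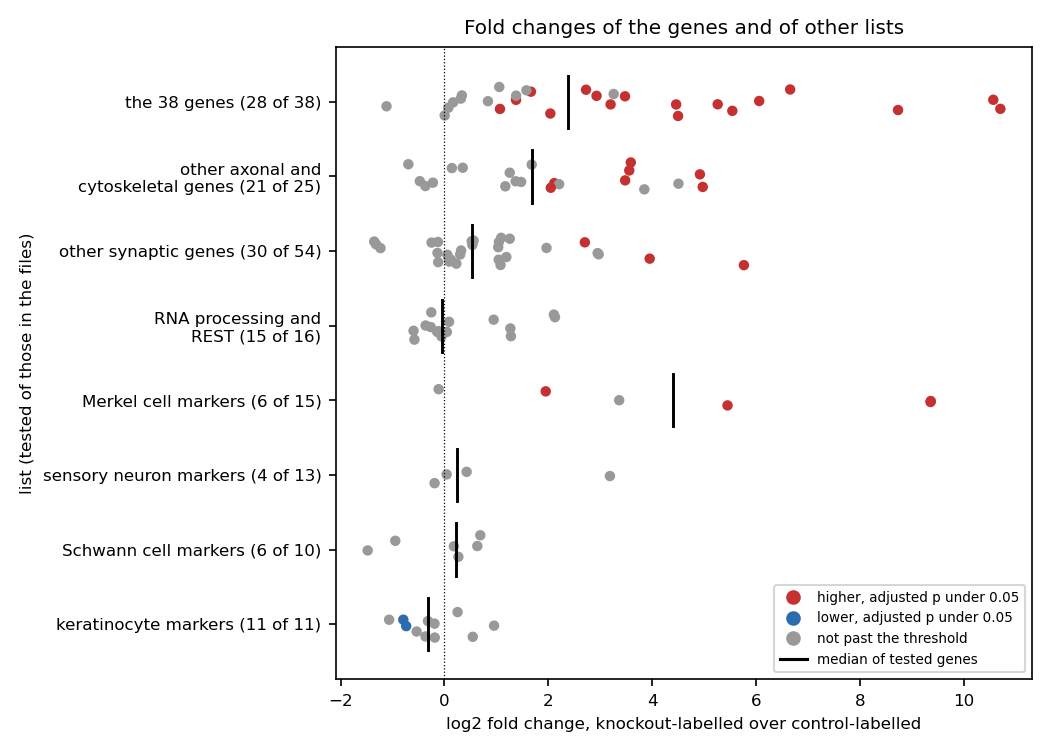
Each point is a tested gene, with its log2 fold change, knockout-labelled over control-labelled, on the horizontal axis and its list on the vertical axis. Black bars are medians of tested genes, which lie at 2.38 for the 38 genes, 1.68 for other axonal and cytoskeletal genes and 0.53 for other synaptic genes. Fitted values of genes with 0 control-labelled counts are no bounds.

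Skin holds other cells that express some of these genes, and their markers were measured in the same libraries. Of 15 Merkel cell markers, 6 were tested and 4 rose, beside 7.17% called higher over all genes. This list too was made with earlier results of these data known. Krt18, a keratin of simple epithelia, went from 1.39, 0.481 and 0.684 CPM in C1 to C3 to 67.5, 25.4 and 19.8 CPM in K1 to K3. The transcription factors Sox2 and Isl1 had 0 control-labelled counts and were at least 80.7- and 85.0-fold higher against the floor, and the touch channel Piezo2 rose 3.86-fold (edgeR adjusted p of the 4 genes 0.00156 to 0.00584). Sox2 and Isl1 entered the test only through their level in the knockout-labelled libraries and had to differ. The summed level of the list was 6.38 to 11.1 CPM in the control-labelled and 57.3 to 105 CPM in the knockout-labelled libraries. Rab3c, Cck and Vip had 0 counts in every library. Atoh1, the factor that specifies Merkel cells, had 1, 0 and 10 counts in C1 to C3 and 0, 3 and 3 in K1 to K3, and Krt20, their keratin, had 0, 3 and 4 and 63, 7 and 1. The part of Merkel cells in the neuronal genes was not tested.

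Of 13 sensory neuron markers, 4 were tested and edgeR called 0, with 1 higher at an unadjusted p under 0.05, 1 called by DESeq2 and 0 by limma-voom. The list summed to 4.98 to 10.7 CPM in the control-labelled and 6.66 to 13.1 CPM in the knockout-labelled libraries. Ntrk2 had the highest mean at 2.75 and 2.83 CPM, Tac1 had 0 counts in every library, and Prph, Calca, Scn9a, Scn10a and Scn11a had 0 to 7 counts per library. Of 10 Schwann cell markers, 6 were tested and 0 passed in edgeR, DESeq2 or limma-voom, or at an unadjusted p under 0.05, with sums of 111 to 144 CPM and 123 to 155 CPM. Erbb3, at 86.1 and 97.7 CPM, had the highest mean of these. Of 8 melanocyte markers, 5 were tested and edgeR called 0 (3 higher at an unadjusted p under 0.05, 2 by DESeq2 and 0 by limma-voom), with sums of 14.1 to 18.2 CPM and 19.6 to 30.7 CPM. Pmel had the highest mean of these, at 7.90 and 9.56 CPM. Of 8 tested fibroblast markers Fbn1, a microfibril protein, rose (20.2 ± 9.12 to 85.6 ± 6.11 CPM, mean ± SD, n = 3; edgeR adjusted p = 0.00738), with sums of 255 to 815 CPM and 519 to 812 CPM. The part of these cells in the changes of the 38 genes was not tested.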

How the data were processed

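Each of the 6 libraries has a deposited file of raw counts, which the authors made for 24453 gene symbols. Per the submitters' processing notes, the tools were HTSeq 0.6.1, TopHat2 2.0.13, DESeq2 1.6.3 and Cufflinks 2.2.1, with the mm10 build. Their roles, the annotation and the strand of counting are not given in the sources used here. Per the labels' protocols, 10 ng of RNA was amplified before library construction, so counts are not independent molecules, and intervals and floors cover counting error only.

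Counts of all genes were fitted with edgeR 4.0.16 (R 4.3.3; TMM, filterByExpr with a minimum count of 10 and total of 15, two-sided quasi-likelihood F test, no covariate, prior count 0.125, Benjamini-Hochberg adjustment, threshold 0.05). The pipeline was tested on simulated data. The SE of a log2 fold change is its absolute value divided by the square root of the quasi-likelihood F. CPM use TMM library sizes. For a gene without control-labelled counts, the bound takes 3 counts as the group total, and for 1 to 3 counts a ratio has an exact 95% interval. Positions and exon lengths are from GENCODE M21 (GRCm38, the mm10 assembly), which held all 38 genes. Alternatives changed the scaling, filter, tool (DESeq2 1.42.0, limma 3.58.1), samples or covariates. The 38 genes and the other lists were chosen with earlier results of these data known. All 38 are named, with up to 4 called genes of smallest p from each list described, or else that of highest mean. Figures used matplotlib 3.10.9.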

Additional observations from a re-analysis of the deposited data

How the results depend on the processing

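The count of the 38 genes called higher was 17 in the main setting. It was 17 with DESeq2 size factors, library size alone or no count filter, 18 with the replicate block, DESeq2 or replicates 2 and 3 alone, 16 with limma-voom, 15 with 50 counts required in 3 libraries, 14 with the GC and length offset, 12 with Xist as a covariate and 8 when only replicates 1 and 2 were used. Leaving out each library gave 12 to 15, and 12 of the 17 kept their call in all 6 of those fits. No setting called any of the 38 lower, and none of the 17 changed sign under any of the 17 alternatives. The 1068 genes called higher over the whole table became 1639 with DESeq2, 636 when Xist was a covariate, 1633 from replicates 2 and 3, 354 from replicates 1 and 2 and 630 to 957 without 1 library (630 without C3 and 647 without K2). The 444 lower genes became 896, 174, 1061, 85 and 174 to 436 in the same order (174 without K2, 181 without C3, 244 without K3, 269 without C2 and 283 without C1), and 724 with the GC and length offset. With that offset 55.3% of calls were higher, against 70.6% without it. The axonal and cytoskeletal list, 7 in the main setting, had 11 with DESeq2, 4 with the Xist covariate and 5 to 8 without 1 library, and the synaptic list, 3 in the main setting, had 6 with DESeq2, 7 from replicates 2 and 3 and 3 to 4 without 1 library. The cause of these shifts was not tested. Genes near 0 that never passed changed sign. Cntn1, on the log2 scale, was at -0.13 with the replicate block, -0.29 with the Xist covariate, -1.40 from replicates 2 and 3 and -0.95 to 0.54 without 1 library (below 0 without C1 or K1). Snap25 was at -0.0024 with library size alone, -0.34 from replicates 2 and 3, -0.25 from replicates 1 and 2 and -0.49 to 1.53 without 1 library (below 0 without C1, C3 or K2). Vamp2 was at -0.13 with the offset, -0.12 from replicates 1 and 2 and -0.034 to 0.24 without 1 library (below 0 without C3 or K3), and Syp at -0.028 to 0.60 without 1 library (below 0 without C1). Replicate numbers shared by the groups gave correlations of deviations of 0.186, 0.261 and 0.0768 for numbers 1, 2 and 3, against -0.225 to 0.0214 for unlike numbers. Every library thus correlated best with its own number. The main fit took no pairs, and whether the numbers mark a shared batch was not tested. The replicate block newly called Ncam1. Genes with fewer than 3 libraries at the filter's level of 0.358 CPM could not be tested at this depth.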
